A study of Mus musculus with 9 samples.

Results

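The 75 genes described here are named for proteins of the mouse mitochondrial ribosome and were followed in CD11b+ bone marrow cells of 9 mice. A gene was a member where its symbol began with Mrpl or Mrps followed by a digit and its reads summed to at least 10 over the 9 libraries. Of 23337 genes in the counts, 76 had such a symbol and 75 of these reached 10 reads, 46 named Mrpl and 29 named Mrps. Mrpl23 fell just outside with 7 reads. The members just inside were Mrps36 with 20 reads, Mrps6 with 84, Mrps33 with 139 and Mrps18b with 239.

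Mitochondrial ribosomes translate the few proteins encoded by mitochondrial DNA, all of which are core subunits of the respiratory chain and ATP synthase. Their RNA is made in the mitochondrion, whereas every ribosomal protein is encoded in the nucleus, made in the cytosol and imported. Some of these proteins descend from bacterial ribosomal proteins, and others were added during the evolution of mitochondria. Neutrophils, in general the most abundant CD11b+ cells of marrow, are known for relying on glycolysis and carry few mitochondria once mature. Their dividing precursors hold more.

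The study asked how vesicles of prostate cancer cells act on myeloid cells of the bone marrow. All animals were male C57BL/6 mice, 3 to 6 weeks old when obtained. The PBS group (n = 3) received 100 µl of PBS through the tail vein on days 1, 3 and 5. The EnzR EV group (n = 3) received 10 µg of vesicle protein in 100 µl on the same days, and the labels call these vesicles EnzR exosomes. EnzR EVs are extracellular vesicles of enzalutamide-resistant CWR-R1 cells, a human prostate cancer line. The EnzR EV + HDL NP group (n = 3) received the same vesicles and, on days 0, 2 and 4, 100 µl of HDL NPs, synthetic particles that mimic high-density lipoprotein. For the HDL NPs the labels give 1 µM and the methods of the study 100 µM. No group received HDL NPs alone, so their effect without vesicles could not be measured. Marrow was taken 24 h after the last injection, red cells were lysed, and CD11b+ cells were collected with a separation kit (EasySep).

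Itgam, the gene of CD11b, was present at 1388 to 2005 CPM in the 9 libraries. CPM express a gene's reads relative to all reads of its library, after scaling by TMM factors, which correct for differences in RNA composition. The summed level of 8 neutrophil genes ranged from 28012 CPM in EnzR EVs replicate 1 to 139520 CPM in EnzR EVs + HDL NPs replicate 2. The sums of 6 erythroid, 5 B lineage and 4 T and NK genes stayed between 3.84 and 36.3 CPM. Of the erythroid genes, Hba-a1 and Hbb-b1 were at 0 in all 9 libraries, which is not taken as a measure of erythroid content. Total counts ranged from 2575776 to 18110561. Rn45s, a ribosomal RNA gene, took 42.7% of counts in EnzR EVs replicate 1, 20.3% in PBS replicate 1 and 14.2% in EnzR EVs replicate 3, against 0.657 to 2.87% elsewhere. EnzR EVs replicate 1 stood apart, and log2 fold changes that it moved by over 1.5 times are also given without it for the members with the highest and lowest values and the smallest p.

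The members were spread over 17 chromosomes. By the known composition of the ribosome, 48 encode proteins of the large subunit, which joins amino acids, and 26 of the small subunit, which reads the messenger RNA. The large-subunit proteins include Mrps18a and Mrps30 despite their symbols. Mrps36 is the remaining member and is now known as a subunit of the 2-oxoglutarate dehydrogenase complex. The other members comprised 44 proteins with a bacterial counterpart and 30 specific to mitochondria. A protein-coding neighbour began within 1000 bp on the opposite strand at 17 of 75 members (22.7%), against 10.6% of all tested protein-coding genes. Mrpl49, for example, shares its start region with Fau, which encodes a protein of the cytosolic ribosome.

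Promoters are shown for the members on which the values below turn, namely the most abundant member (Mrpl33), the lowest (Mrps36), 3 members with the smallest p between both EV groups (Mrpl10, Mrpl51, Mrpl36) and a member that followed the Rn45s share (Mrpl32). Each stretch holds the 100 bases before the start that RefSeq gives on GRCm38.p6, 5′ to 3′ on the gene's strand. Capitals mark a match to a searched motif, on either strand. In Mrpl33 the last capitals are the first bases of an ETS match that runs on past the start. The stretch of Mrpl32 holds NRF1 letters at several places, of which some overlap.
Mrpl33 (chr5:31613851-31613950, + strand): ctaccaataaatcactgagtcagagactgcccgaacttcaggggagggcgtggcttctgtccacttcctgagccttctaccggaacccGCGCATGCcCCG
Mrps36 (chr13:100744660-100744759, - strand): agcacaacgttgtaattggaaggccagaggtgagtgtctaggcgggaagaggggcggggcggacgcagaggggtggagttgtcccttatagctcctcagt
Mrpl10 (chr11:97041482-97041581, + strand): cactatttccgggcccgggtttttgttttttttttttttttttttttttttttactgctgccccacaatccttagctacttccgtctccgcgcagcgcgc
Mrpl51 (chr6:125192100-125192199, + strand): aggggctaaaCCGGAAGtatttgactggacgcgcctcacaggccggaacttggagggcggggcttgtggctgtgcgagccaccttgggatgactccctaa
Mrpl36 (chr13:73330909-73331008, + strand): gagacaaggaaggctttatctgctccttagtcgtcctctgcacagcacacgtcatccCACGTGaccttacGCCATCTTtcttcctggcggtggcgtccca
Mrpl32 (chr13:14613038-14613137, - strand): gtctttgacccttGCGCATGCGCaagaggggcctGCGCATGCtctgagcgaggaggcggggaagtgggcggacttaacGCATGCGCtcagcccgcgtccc

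RefSeq gave promoters of 300 bases, from 250 before to 50 after the start, for 72 starts of 66 members. The ETS letters CCGGAAG were found in 33.3% of the member promoters, against 17.0% of the promoters of tested genes and 8.86% of all promoters. The YY1 letters AAGATGGC were in 16.7%, against 4.27% and 2.75%. The NRF1 letters GCATGCGC, a core chosen after a longer form had been searched, were in 8 member promoters, or 11.1%, against 5.11% and 2.71%. These were the promoters of Mrpl9, Mrpl10, Mrpl17, Mrpl22, Mrpl32, Mrpl33, Mrpl39 and Mrps18b. The E-box CACGTG was in 9.72%, against 9.77% and 7.15%, and TATAAA in 6.94%, against 7.27% and 13.6%. ETS factors, YY1 and NRF1 are known regulators of nuclear genes for mitochondrial proteins. Both strands were searched and none of these motifs contains another. Median GC content was 58.2% in member promoters and 60.3% in those of tested genes.

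Most members were expressed at a moderate level. In PBS mice the median over the 75 members was 12.8 CPM, with 57 members between 5 and 25 CPM, 10 under 5 CPM and 4 over 30 CPM. Among the 74 that passed the filter on low counts, the median per kb of transcript was 7.41 CPM, against 7.73 CPM per kb for all tested genes. Cytosolic ribosomal protein genes stood at a median of 27.9 CPM per kb and nuclear genes of the respiratory chain and ATP synthase at 43.8 CPM per kb. Lengths are medians over annotated transcripts, so levels per kb are approximate.

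Mrpl33, which encodes a small protein of the large subunit with a bacterial counterpart, stood above every other member. Its gene spans chr5:31596935-31664384 on mm10. It was at 154, 116 and 114 CPM in the PBS mice, 111, 118 and 136 CPM with EnzR EVs, and 102, 122 and 105 CPM with EnzR EVs + HDL NPs. The 3 groups overlapped. It made up 11.4% of the members' summed CPM in PBS mice, and its 267 CPM per kb was followed by Mrpl20 at 38.0, Mrps21 at 35.7, Mrpl18 at 33.8 and Mrps18c at 29.9 CPM per kb. The ranges of Mrpl18 in CPM (38.6 to 46.3 in PBS mice) and Mrpl33 did not overlap.

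At the lower end, Mrps36 had 0.367 CPM per kb in PBS mice, Mrps6 had 0.566, Mrps5 had 0.757, Mrpl47 had 0.955 and Mrps18b had 1.64. Mrps36 was the only member that failed the filter on low counts, and it was at 0 in EnzR EVs replicate 1 and EnzR EVs + HDL NPs replicate 1. The 3 Mrps18 genes are paralogs with unequal levels: Mrps18c stood at 19.1 ± 0.384 CPM (SD, n = 3 PBS mice), Mrps18a at 10.7 ± 0.793 CPM and Mrps18b at 1.55 ± 1.34 CPM. Mrps18b was at 0 in PBS replicate 1 and EnzR EVs replicate 1, whose Rn45s shares were the highest. A floor of 3 reads corresponds to 0.166 CPM of the largest and 1.16 CPM of the smallest library, before TMM scaling.

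**Figure D1:**
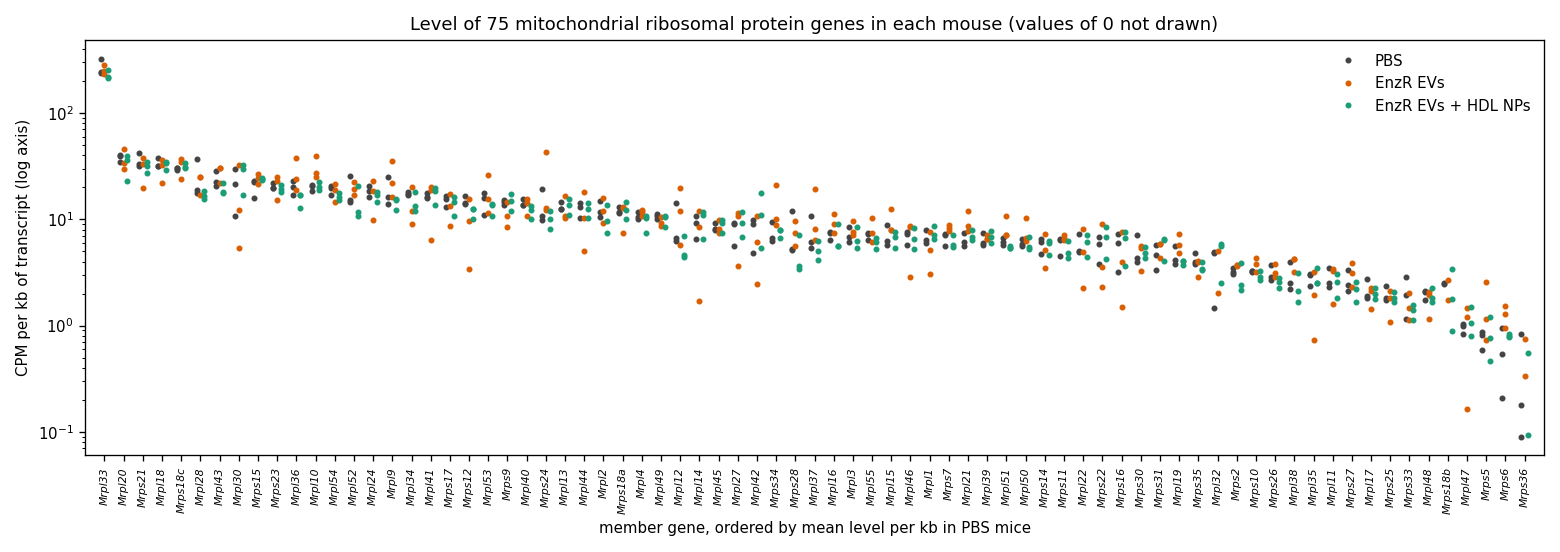
Level of each of the 75 members in each of the 9 mice, in CPM per kb of transcript on a log axis, with members ordered by their mean in PBS mice and colored by group. Mrpl33 (267 CPM per kb) stands alone at the left, the other members decline steadily from 38.0 (Mrpl20), and Mrps36 (0.367 CPM per kb) is lowest.

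Between libraries, members varied about as much as other genes did. The coefficient of variation over the 9 libraries had a median of 24.4% over members and 25.8% over all tested genes. It was smallest for Mrpl49 (9.98%), a mitochondria-specific protein of the large subunit, and largest for Mrps36 (102%). Mrpl49 was at 17.8, 19.8 and 19.0 CPM in PBS mice, 16.4, 18.7 and 15.2 CPM with EnzR EVs, and 19.1, 18.6 and 15.01 CPM with EnzR EVs + HDL NPs. The groups overlapped in all 3 comparisons.

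The summed CPM of all 75 members was 1211.5, 1075.1 and 1083.9 in PBS replicates 1 to 3. It was 1144.5, 1231.8 and 1153.7 with EnzR EVs and 1147.6, 1065.3 and 908 with EnzR EVs + HDL NPs. The EnzR EV and PBS groups overlapped, and the EnzR EV + HDL NP group overlapped both. In bulk RNA, fewer cells of a type and less of an RNA per cell cannot be told apart.

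No member passed the threshold in any comparison. Tests were edgeR quasi-likelihood tests with Benjamini-Hochberg adjustment over 12553 genes, and an adjusted p under 0.05 was called. In EnzR EVs against PBS, 0 of 74 tested members were called and 0% of all tested genes. DESeq2 called 0 members and 11 genes (0.0876%). At an unadjusted p under 0.05 by edgeR, 2 members were higher (2.70%, against 1.55% of all tested genes) and 0 were lower (against 1.92%). In either direction, 3.47% of tested genes reached this level by edgeR. On that measure DESeq2 gave 2 members (2.70%, against 4.49%), limma's voom 1 (1.35%, against 3.11%), and edgeR 0 with scaling by library size only (against 2.89%). Among the members, 39 had a log2 fold change above 0 (52.7%, against 46.5% of tested genes), and the median was 0.05 for members and -0.03 for all tested genes, which turned to -0.09 and -0.18 with scaling by library size only.

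The smallest p in this comparison belonged to Mrpl10, whose product forms the base of the stalk that recruits translation factors. The gene lies at chr11:97041560-97049213 on mm10, and its start is 153 bp from that of Lrrc46 on the opposite strand. Mrpl10 was at 35.2, 35.5 and 31.4 CPM in PBS mice and 66.7, 42.3 and 46.9 CPM with EnzR EVs. Every EnzR EV mouse was above every PBS mouse, and replicate 1 was the highest. The log2 fold change was 0.59 (SE 0.19), with an unadjusted p of 0.0115 and an adjusted p of 0.928 by edgeR. With EnzR EVs + HDL NPs the values were 32.3, 37.9 and 34.3 CPM, which overlapped those of PBS mice and lay below all EnzR EV mice.

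Mrps34, a mitochondria-specific protein of the small subunit, had the other unadjusted p under 0.05. It was at 8.62, 5.75 and 6.12 CPM in PBS mice and 19.1, 8.14 and 9.21 CPM with EnzR EVs. PBS replicate 1 lay inside the EnzR EV range, and EnzR EVs replicate 1 was the highest of the 9 libraries. The log2 fold change was 0.75 (SE 0.33), with an unadjusted p of 0.0472 and an adjusted p of 0.928 by edgeR, and fell to 0.38 without EnzR EVs replicate 1, with a p of 0.154. An exon of Mrps34 overlaps Nme3 on the same strand, so its count may be uncertain. The same holds for Mrps24 (Urgcp), Mrps6 (Slc5a3 and Gm49711) and Mrpl53 (Gm42688). Exons of 20 members overlap a gene on the opposite strand, among them Mrps34 and Mrpl9, Mrpl19, Mrpl36, Mrpl43 and Mrps7, and since it is not known whether counting used strand, their counts may be uncertain too.

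Mrpl51, a mitochondria-specific protein of the large subunit (chr6:125191801-125196269), had the third smallest p of this comparison, 0.0674. It stood at 22.7, 20.9 and 19.7 CPM in PBS mice, 36.7, 24.4 and 24.3 CPM with EnzR EVs, and 19.1, 18.3 and 18.6 CPM with EnzR EVs + HDL NPs. Every EnzR EV mouse was above every PBS mouse, and every EnzR EV + HDL NP mouse was below both groups. The log2 fold change of EnzR EVs against PBS was 0.40 (SE 0.20), and without EnzR EVs replicate 1 it was 0.22.

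The 5 highest log2 fold changes of EnzR EVs against PBS were those of Mrps6 (0.94), Mrps5 (0.82), Mrps34 (0.75), Mrps24 (0.68) and Mrpl10 (0.59). Of these, Mrps5, Mrps6 and Mrps24 are small-subunit proteins with a bacterial counterpart, and their p were 0.112 to 0.180. Mrps24 was at 42.7 CPM in EnzR EVs replicate 1 and at 9.89 to 19.0 CPM in the 3 PBS mice and the other 2 EnzR EV mice. Without EnzR EVs replicate 1, its log2 fold change was -0.05, that of Mrps5 was 0.38 and that of Mrps6 was 0.90. The 5 lowest were Mrps12 (-0.49), Mrpl32 (-0.45), Mrps33 (-0.43), Mrpl35 (-0.37) and Mrps9 (-0.31), with p from 0.186 to 0.529. Without EnzR EVs replicate 1 they were -0.22, -0.09, -0.54, -0.11 and -0.17 in this order. Without PBS replicate 1 Mrpl32 was at -0.77 and Mrps33 at -0.15. Over all alternative fits, Mrps12 ranged from -0.97 to 0.13, Mrpl32 from -1.43 to 0.06 and Mrps33 from -0.71 to -0.15. Mrpl35 ranged from -0.86 to 0.09 and Mrps9 from -0.52 to -0.01. Mrps12, a protein of the decoding centre, was at 13.2, 11.5 and 11.1 CPM in PBS mice and 2.74, 12.3 and 7.68 CPM with EnzR EVs, and these groups overlapped.

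The groups of EnzR EVs and PBS did not overlap for 5 members, all higher (6.76%, against 3.41% of tested genes): Mrpl10, Mrpl21, Mrpl51, Mrps2 and Mrps7. No member was lower in this sense (against 4.54%). Without EnzR EVs replicate 1 the groups did not overlap for 14 members, all higher (18.9%, against 7.74%). The number with an unadjusted p under 0.05 in either direction was 10 without EnzR EVs replicate 2 (13.5%, against 16.6% of tested genes). It was 4 without PBS replicate 1 (5.41%, against 8.31%) and 3 without EnzR EVs replicate 3 (4.05%, against 2.44%). When any other single library was left out it was 1 (1.35%, against at most 3.57%). Without EnzR EVs replicate 2, 6 of the 10 were higher and 4 lower, and the median of members was -0.04.

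**Figure D2:**
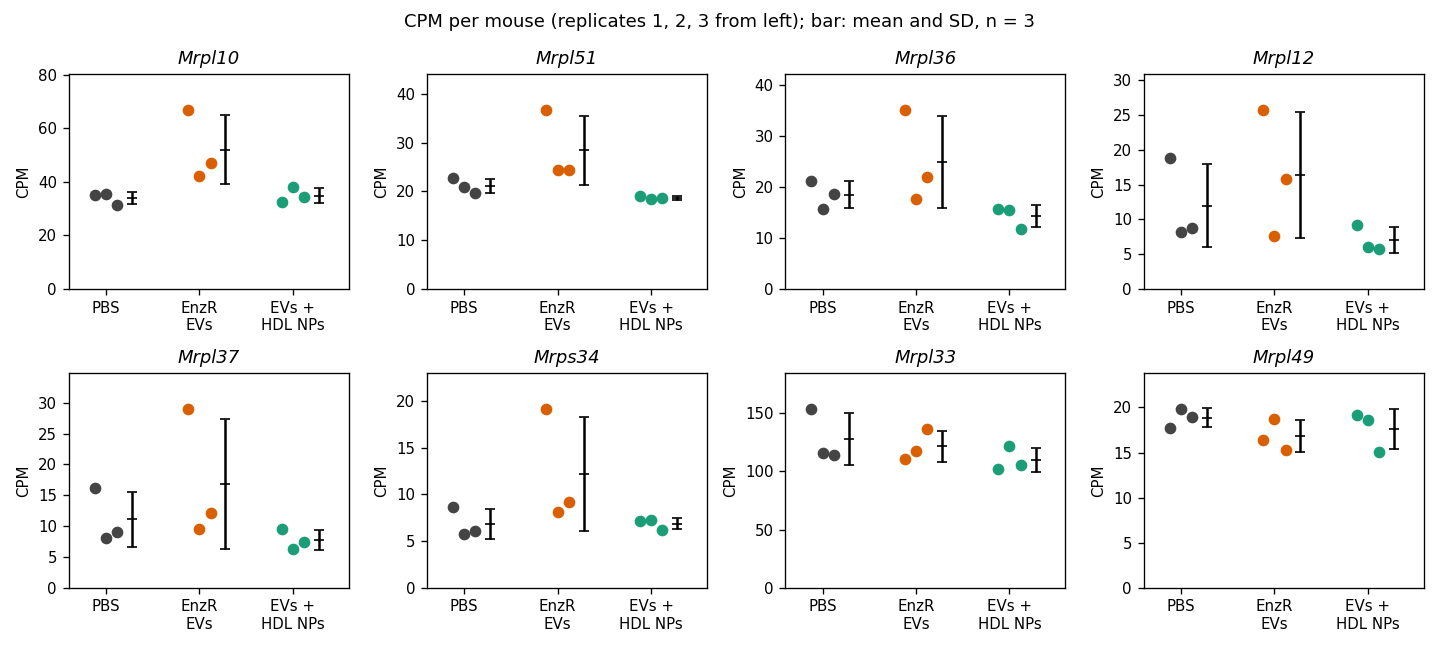
CPM of 8 members in each mouse, with replicates 1 to 3 from left to right in each group and the mean and SD (n = 3) beside them. For Mrpl10 and Mrpl51 every EnzR EV mouse lies above every mouse of the other groups; for Mrpl12, Mrpl37 and Mrps34 the spread of the EnzR EV group comes with a high replicate 1, and Mrpl33 and Mrpl49 overlap between groups.

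In EnzR EVs + HDL NPs against PBS, edgeR called 0 of 74 members and 0% of tested genes, and DESeq2 called 0 members and 8 genes (0.0637%). At an unadjusted p under 0.05, 0 members were found by edgeR, DESeq2 or limma's voom (by edgeR against 1.02% of tested genes higher and 1.12% lower). The median log2 fold change was -0.08 for members and -0.01 for all tested genes. Of the members, 26 were above 0 (35.1%, against 48.9%). Without EnzR EVs + HDL NPs replicate 3, in which the members' sum was lowest, 39 of 74 were above 0 and the median was 0.01, and without replicate 1 of that group 12 of 74 were above 0 and the median was -0.17.

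The smallest p here were those of Mrpl28 (0.0968), Mrpl12 (0.130) and Mrpl43 (0.150), all of the large subunit. Mrpl28 was at 39.0, 18.9 and 20.3 CPM in PBS mice and 19.8, 17.8 and 16.5 CPM with EnzR EVs + HDL NPs. PBS replicate 1 was the highest of the 9 libraries and the groups overlapped, with a log2 fold change of -0.51 (SE 0.28), or -0.12 without PBS replicate 1. The lowest values after Mrpl12 (-0.73), Mrps28 (-0.58) and Mrpl28 were Mrpl37 (-0.49) and Mrps33 (-0.46). The highest were Mrpl42 (0.49), Mrps6 (0.34), Mrpl30 (0.33), Mrpl32 (0.29) and Mrps31 (0.28), with p from 0.320 to 0.677. Without PBS replicate 1, the 5 lowest lay between -0.28 (Mrpl12) and -0.12 (Mrps28 and Mrpl28), and the 5 highest between -0.06 (Mrpl32) and 0.27 (Mrpl42). The groups did not overlap for 2 higher members, Mrps15 and Mrps18c (2.70%, against 6.97%), and for 4 lower members, Mrpl36, Mrpl40, Mrpl51 and Mrps12 (5.41%, against 6.20%).

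The comparison of EnzR EVs + HDL NPs against EnzR EVs had the most members at small p, all lower. By edgeR, 0 of 74 were called and 0% of tested genes, and DESeq2 called 0 members and 1 gene (0.00797%). At an unadjusted p under 0.05, 10 members were lower (13.5%, against 6.97% of tested genes) and 0 were higher (against 3.58%). In either direction 10.6% of tested genes reached this level, and the shares of tested genes that follow are of this kind. DESeq2 gave 11 (14.9%, against 13.4% of tested genes in either direction) and limma's voom 6 (8.11%, against 7.80%), all lower. With scaling by library size only edgeR gave 0 (against 7.23%). With the replicate block it gave 13, all lower (17.6%, against 18.2% of tested genes in either direction). The 10 were Mrpl9, Mrpl10, Mrpl12, Mrpl19, Mrpl36, Mrpl37, Mrpl43, Mrpl51, Mrps7 and Mrps24. Their adjusted p by edgeR was 0.461 in each case. The number of members at this level in either direction was 4 without EnzR EVs replicate 1 (5.41%, against 5.19% of tested genes). It was 17 without EnzR EVs replicate 2 (11 lower and 6 higher, 23.0%, against 29.3%). It was 6 without EnzR EVs replicate 3 (8.11%, against 5.90%). Without EnzR EVs + HDL NPs replicates 1, 2 and 3 it was 11 (14.9%, against 6.38%), 4 (5.41%, against 5.23%) and 3 (4.05%, against 5.59%). Without PBS replicates 1, 2 and 3 it was 11 (14.9%, against 12.9%), 8 (10.8%, against 8.46%) and 9 (12.2%, against 8.90%). Except without EnzR EVs replicate 2, all of these members were lower.

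Mrpl51 had the smallest p of the 10, 0.0145, with a log2 fold change of -0.58 (SE 0.20). Mrpl10 followed with -0.56 (SE 0.19) and a p of 0.0155. Both were lower in every EnzR EV + HDL NP mouse than in every EnzR EV mouse, and without EnzR EVs replicate 1 their values were -0.39 and -0.36. Mrpl36, which has a bacterial counterpart and lies at chr13:73328513-73332178, was at 35.0, 17.6 and 22.0 CPM with EnzR EVs and 15.6, 15.5 and 11.8 CPM with EnzR EVs + HDL NPs. These groups did not overlap. PBS mice, at 21.1, 15.8 and 18.6 CPM, overlapped EnzR EV mice and lay above all EnzR EV + HDL NP mice. The log2 fold change was -0.74 (SE 0.27), with an unadjusted p of 0.0178 by edgeR.

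Mrpl12, the stalk protein that binds translation factors and is also known to bind mitochondrial RNA polymerase, had the lowest log2 fold change, -1.12 (SE 0.46, unadjusted p of 0.0330 by edgeR). It was at 25.7, 7.61 and 15.8 CPM with EnzR EVs and 9.17, 6.08 and 5.79 CPM with EnzR EVs + HDL NPs. EnzR EVs replicate 2 lay inside the EnzR EV + HDL NP range. In PBS mice it was at 18.8, 8.22 and 8.80 CPM, again with the highest value in the library rich in Rn45s. Mrps24 (-1.05), Mrpl37 (-1.01), Mrpl36 (-0.74) and Mrps28 (-0.73) were the next lowest. Leaving out EnzR EVs replicate 1 gave -0.72 for Mrpl12, -0.32 for Mrps24, -0.48 for Mrpl37, -0.47 for Mrpl36 and -0.84 for Mrps28. Over all alternative fits, Mrpl12 ranged from -1.54 to -0.12, Mrps24 from -1.38 to -0.32 and Mrpl37 from -1.34 to -0.31. Mrpl36 ranged from -0.98 to -0.30 and Mrps28 from -1.15 to -0.52. Mrpl37, a mitochondria-specific large-subunit protein, was at 29.0, 9.57 and 12.1 CPM with EnzR EVs and 9.45, 6.26 and 7.47 CPM with EnzR EVs + HDL NPs.

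The 5 highest in this comparison were Mrpl32 (0.73), Mrpl42 (0.62), Mrpl30 (0.53), Mrpl1 (0.40) and Mrpl35 (0.38), with p from 0.183 to 0.328. They were 0.36, 0.39, 0.21, 0.19 and 0.12 without EnzR EVs replicate 1. Over all alternative fits, Mrpl32 ranged from -0.12 to 1.72, Mrpl42 from 0.07 to 1.175 and Mrpl30 from -0.29 to 1.40. Mrpl1 ranged from -0.05 to 0.735 and Mrpl35 from -0.17 to 0.87. Mrpl32, whose product is cut to its mature form by a protease of the inner membrane, was at 0, 15.3 and 6.14 CPM with EnzR EVs and 17.7, 17.0 and 7.54 CPM with EnzR EVs + HDL NPs. In PBS mice it was at 4.40, 14.7 and 14.8 CPM. The 3 lowest values were those of the 3 libraries with the highest Rn45s share, whatever their group.

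The EnzR EV + HDL NP mice lay below all EnzR EV mice for 15 members (20.3%, against 8.55% of tested genes) and above them for 0 (against 8.99%). Without EnzR EVs replicate 1 the groups did not overlap for 26 members, all lower (35.1%, against 11.9% of tested genes). The median log2 fold change over members was -0.12, against 0.03 over all tested genes, and turned to 0.07, against 0.24, with scaling by library size only. With TMM factors 26 of 74 were above 0 (35.1%, against 52.8%), and with library size only 42 of 74. With 1 EnzR EV library left out the count was 11, 35 and 28 of 74 without replicates 1, 2 and 3, with medians of -0.20, -0.06 and -0.06. With 1 EnzR EV + HDL NP library left out it was 14, 22 and 31 of 74, with medians of -0.24, -0.21 and -0.05. Large-subunit members had a median of -0.14, small-subunit members -0.05, those with a bacterial counterpart -0.13 and mitochondria-specific members -0.10. Without the 3 libraries with the highest Rn45s share, a choice made after seeing the data that leaves 1 EnzR EV mouse, 5 of 74 were above 0 and the median was -0.29.

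**Figure D3:**
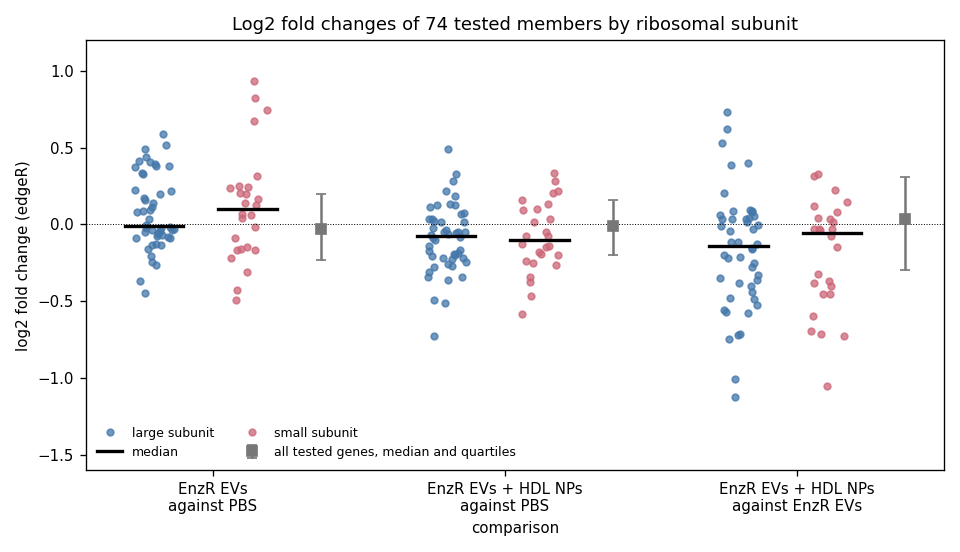
Log2 fold changes of the 74 tested members in the 3 comparisons, 48 of the large and 26 of the small subunit, with their medians as bars and the median and quartiles of all tested genes as gray squares. Medians of the large and small subunit are -0.01 and 0.10 in EnzR EVs against PBS, -0.08 and -0.10 with HDL NPs added against PBS, and -0.14 and -0.05 between both EV groups, where all tested genes have 0.03.

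Members near the catalytic and decoding sites are given next by function, and 0 were called, where edgeR called 0% of all tested genes in each comparison. Of the proteins around the peptidyl transferase centre, Mrpl2, Mrpl3, Mrpl4 and Mrpl16 had log2 fold changes of -0.03, 0.17, 0.10 and 0.33 in EnzR EVs against PBS. In EnzR EVs + HDL NPs against EnzR EVs the same genes had -0.22, -0.25, -0.28 and -0.40, with p from 0.161 to 0.460. Around the exit of the peptide tunnel, Mrpl22, Mrpl24, Mrpl44 and Mrpl45 had values of 0.04, -0.12, 0.04 and 0.04 in the latter comparison. Mrpl45, which ties the ribosome to the inner membrane, was the most even of these, at 20.3 ± 1.73, 20.6 ± 3.04 and 21.3 ± 3.10 CPM (SD, n = 3) with PBS, EnzR EVs and EnzR EVs + HDL NPs.

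In the stalk, Mrpl11 had values of -0.02 (SE 0.34) in EnzR EVs against PBS and -0.12 (SE 0.33) in EnzR EVs + HDL NPs against EnzR EVs. The central protuberance proteins Mrpl18 and Mrpl48 each had 0.08 in the latter comparison. Of the small subunit, Mrps2, Mrps16, Mrps22 and Mrps27, a protein with pentatricopeptide repeats, had -0.37, 0.32, 0.23 and -0.45, with p from 0.178 to 0.618. Mrps2, Mrps16 and Mrps22 are known from inherited human defects of mitochondrial translation. Over the 3 groups together, 0 of 74 members were called by edgeR or DESeq2 (0% and 0.127% of tested genes). At an unadjusted p under 0.05, edgeR gave 2, Mrpl10 and Mrpl51 (2.70%, against 4.47%). DESeq2 gave 7 (9.46%, against 7.59%), limma's voom 1 (1.35%, against 3.70%) and edgeR with the replicate block 9 (12.2%, against 10.4%). With 1 library left out the count was 12 without EnzR EVs replicate 2 (16.2%, against 18.8%), 5 without PBS replicate 1 (6.76%, against 7.87%), 2 without EnzR EVs replicate 3 (2.70%, against 2.41%), 0 without EnzR EVs replicate 1 (against 3.83%) and 1 in each other case (1.35%, against at most 2.98%).

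Levels of some members moved with the Rn45s share of the library, in shares at or under those of all tested genes. Across 9 libraries that also differ in depth and group, the rank correlation with this share ranged from -0.98 for Mrpl32 and -0.97 for Mrpl42 to 0.77 for Mrpl19 and 0.82 for Mrpl9. It was at most -0.75 for 10 members (13.5%, against 14.3% of tested genes) and at least 0.75 for 3 (4.05%, against 11.4%), with a median of -0.02 over members and -0.05 over tested genes. In the 3 libraries with the highest share, 11 members lay above all 6 other libraries (14.9%, against 15.4% of tested genes) and 4 lay below (5.41%, against 17.9%). The 11 were Mrpl9, Mrpl12, Mrpl15, Mrpl19, Mrpl36, Mrpl37, Mrpl38, Mrpl43, Mrps26, Mrps27 and Mrps34, and the 4 were Mrpl30, Mrpl32, Mrpl35 and Mrps22. Of the 10 members with an unadjusted p under 0.05 in EnzR EVs + HDL NPs against EnzR EVs, 6 are among these 11 (60.0%, against 81.9% of all tested genes lower at this level). Of the 15 whose groups did not overlap, 9 are (60.0%, against 63.3%). Of the 3 libraries, 2 belong to the EnzR EV group and 0 to the EnzR EV + HDL NP group. The part of the Rn45s share in these differences was not tested.

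EnzR EVs replicate 1 held 2092 reads on the members, against 6888 to 23157 in the other libraries, and its median member had 19 reads. In it 20 members had under 10 reads and 3 had 0. Of the 74 tested members, 31.1% were above 2 times or under 0.5 times their median over the other 8 libraries (CPM + 0.5), against 32.4% of all tested genes. In each of the other 8 libraries the share was at most 6.76%. The correlation between pairs of members over the 9 libraries had a median of 0.21 and quartiles of -0.32 and 0.63, which is given as a description since all pairs share these libraries.

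**Figure D4:**
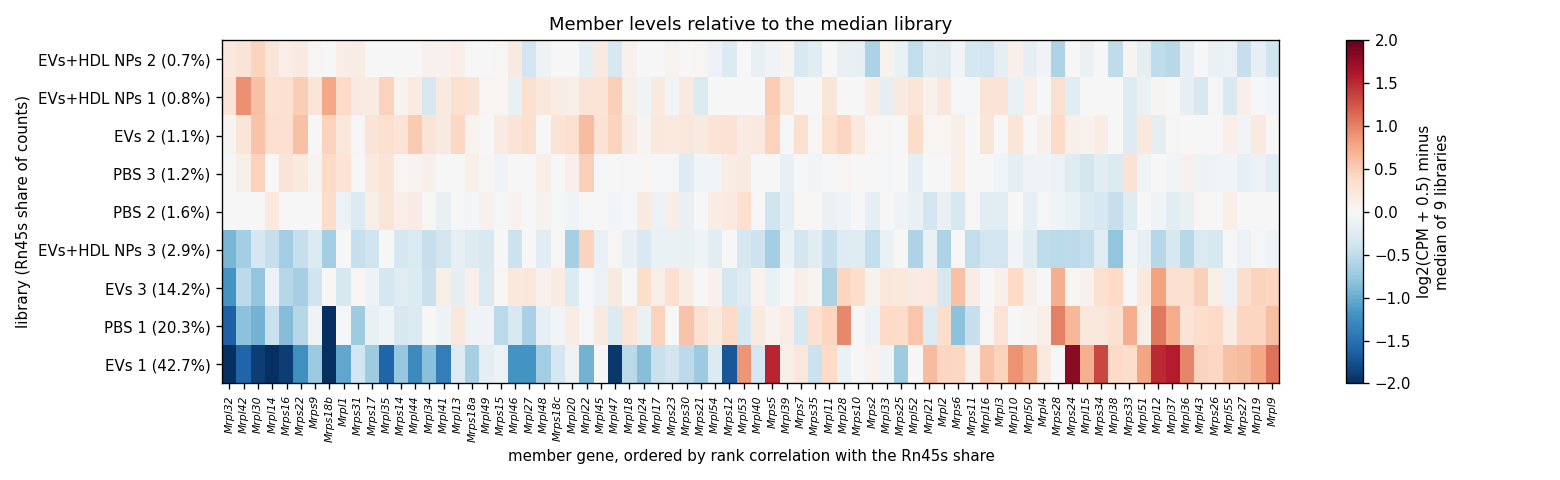
Level of the 74 tested members in each library as log2(CPM + 0.5) minus the median of the 9 libraries, with libraries ordered by Rn45s share from top to bottom and members by rank correlation with that share. The strongest colors are in the bottom row, EnzR EVs replicate 1 (42.7% Rn45s), with Mrpl32 among the lowest and Mrpl9 among the highest, and PBS replicate 1 shows the same order more faintly.

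Early granulocyte genes (Mpo, Elane, Prtn3, Ctsg and Ms4a3), which mark dividing neutrophil precursors, were lower in sum in every EnzR EV + HDL NP mouse than in every EnzR EV mouse. They summed to 1519 to 1987 CPM in PBS mice, 2019 to 2168 CPM with EnzR EVs and 856 to 1762 CPM with EnzR EVs + HDL NPs. The last of these ranges overlapped that of PBS mice. Of the 5 genes, 0 were called and 0 had a log2 fold change above 0 in EnzR EVs + HDL NPs against EnzR EVs, with a median of -0.63. In the same comparison 8 of 8 neutrophil genes (median 0.23) and 5 of 5 monocyte genes (median 0.36) were above 0, and 0 of either list were called. Over the 9 libraries the log2 of the early granulocyte sum had a Pearson r of 0.77 with the log2 of the members' sum. This was the highest of the marker lists. The other lists lay between -0.47 (platelet and megakaryocyte) and 0.49 (eosinophil and basophil). These r are a description over libraries that share group and depth. The 6 cycling genes summed to 1918 to 2765 CPM, with an r of 0.17. The part of the cell makeup in the members' levels was not tested.

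**Figure D5:**
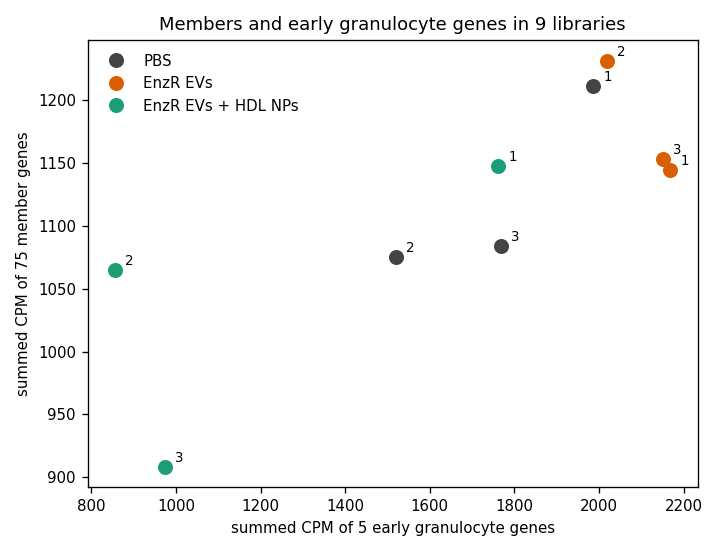
Summed CPM of the 75 members against the summed CPM of 5 early granulocyte genes in the 9 libraries, colored by group and numbered by replicate. The EnzR EV mice lie at the right (2019 to 2168 CPM), and EnzR EVs + HDL NPs replicates 2 and 3 lie at the left, with replicate 3 lowest in the members' sum (908 CPM).

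The other proteins of the mitochondrial ribosome, which carry different symbols, were followed in the same fit. Of Dap3, Ptcd3, Chchd1, Aurkaip1, Gadd45gip1, Ict1 and Mrp63, 0 of 7 were called, and their median was 0.13 in EnzR EVs against PBS, -0.14 with HDL NPs added against PBS and -0.22 in EnzR EVs + HDL NPs against EnzR EVs. Dap3, a GTP-binding protein of the small subunit, was at 32.9 ± 1.58, 38.5 ± 2.28 and 35.7 ± 0.667 CPM (SD, n = 3). Chchd1 had a log2 fold change of -0.82 (SE 0.38) in EnzR EVs + HDL NPs against EnzR EVs, with an unadjusted p of 0.0555 by edgeR. It was highest in EnzR EVs replicate 1, at 40.5 CPM, and without that library the value was -0.31.

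Of 14 tested translation factors, 0 were called and the medians were 0.10, 0.14 and -0.01 in the same order. Tsfm, the exchange factor of the elongation factor Tufm, had -1.34 (SE 0.47, unadjusted p of 0.0164 by edgeR) in EnzR EVs + HDL NPs against EnzR EVs, and Gfm2, which recycles ribosomes, had 0.49 (p of 0.0451 by edgeR) in EnzR EVs against PBS. Tsfm was at 20.2, 5.80 and 12.5 CPM with EnzR EVs and 6.08, 3.75 and 4.19 CPM with EnzR EVs + HDL NPs, which overlapped. Tsfm had -0.95 with a p of 0.0520 and Gfm2 0.29 with a p of 0.132, both by edgeR, without EnzR EVs replicate 1. Of 22 genes of ribosome assembly and rRNA modification and 10 of mitochondrial transcription, 0 were called, with medians in EnzR EVs + HDL NPs against EnzR EVs of -0.07 and 0.00.

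Of 19 mitochondrial aminoacyl-tRNA synthetases, which charge transfer RNAs, 0 were called and the median was 0.20 in EnzR EVs against PBS and -0.20 in EnzR EVs + HDL NPs against EnzR EVs. Lars2, the leucyl enzyme, was the most variable. It was at 1708, 221 and 99.2 CPM in PBS mice, 2261, 94.4 and 1106 CPM with EnzR EVs, and 42.2, 38.8 and 288 CPM with EnzR EVs + HDL NPs, and its 3 highest values were those of the 3 libraries with the highest Rn45s share. Of 11 tested regulators of mitochondrial genes, 0 were called. Myc had -1.95 (SE 0.79, unadjusted p of 0.0327 by edgeR) in EnzR EVs + HDL NPs against EnzR EVs, and Gabpa, the ETS factor, had -0.44 with a p of 0.0844. Myc was at 104, 11.2 and 20.4 CPM with EnzR EVs and 17.6, 5.54 and 9.56 CPM with EnzR EVs + HDL NPs. Leaving out EnzR EVs replicate 1 gave -0.53 for Myc (p of 0.363 by edgeR) and -0.15 for Gabpa.

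Cytosolic ribosomal protein genes, set beside the members, had medians of -0.18, -0.11 and 0.11 over 81 tested genes, in the order used above (EnzR EVs against PBS first, and the comparison of both EV groups last). Nuclear genes of the respiratory chain and ATP synthase had 0.01, -0.12 and -0.12 over 78 tested genes, and members had 0.05, -0.08 and -0.12 over 74. None of these genes was called by edgeR, and at an unadjusted p under 0.05 in the last comparison 16 of 78 respiratory chain genes (20.5%) and 7 of 81 cytosolic ribosomal protein genes (8.64%) were lower, against 6.97% of all tested genes. Whether the lists differ was not tested.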

How the data were processed

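Stranded total RNA-seq was made from CD11b+ bone marrow cells of 9 mice (200 ng of RNA, rRNA depletion, 75 bp read from a single end). The authors deposited raw counts per gene, without normalization, made with cutadapt 1.13, STAR on mm10 and HTSeq 0.6.1p1 on the UCSC annotation; whether counting used strand is not given in the sources used here. Groups came from sample titles, and replicates are separate mice.

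The main test was edgeR 4.0.16, run in R 4.3.3 (TMM factors, default filter on low counts, passed by 12553 genes, robust quasi-likelihood fit to all 9 libraries, adjustment over all tested genes, threshold 0.05). DESeq2 1.42.0 and limma 3.58.1 were alternatives, with other scaling, filters, 6 libraries, a replicate block and each library left out. Members and lists were chosen with earlier results of these data known, so no p was computed over them. Named genes were the members past the threshold, the 5 highest and 5 lowest fold changes and the 3 smallest p in each comparison, the 5 highest and 5 lowest levels per kb, members at the count limits, and members listed by role. A rank or exact test of 3 against 3 cannot go below p = 0.10. Coordinates and lengths came from GENCODE M21 on GRCm38, matched by symbol for 22843 of 23337 genes (97.9%), and promoters from RefSeq.

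Same-numbered samples of EnzR EVs and PBS had correlated deviations (0.47, 0.49 and 0.13), which met the rule for pairs, although unmatched numbers also reached 0.43 (PBS 3 with EnzR EVs 2) and 0.16 (PBS 2 with EnzR EVs 3). The main fit used no pairs and the blocked fit was an alternative. With EnzR EVs + HDL NPs the correlations ranged from -0.18 to 0.29. PBS replicates 2 and 3, the closest pair, had a chi-square of 4.48 per gene between them and so differed beyond sampling noise. Without molecular identifiers, floors on counts reflect counting error alone.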

Additional observations from a re-analysis of the deposited data

How the results depend on the processing

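No member was called under any alternative, and the smallest adjusted p of a member was 0.277 in EnzR EVs against PBS, 0.861 with HDL NPs added against PBS, 0.0841 in EnzR EVs + HDL NPs against EnzR EVs and 0.200 for any difference. The count of all genes called, 0 by edgeR, was 11, 8, 1 and 16 in the same order by DESeq2. In EnzR EVs against PBS it was 1 with no filter on low counts, 10 without the 3 libraries with the highest Rn45s share (chosen after seeing the data), 5 without PBS 1 and EnzR EVs 1, and 0 to 2 with 1 library left out. In EnzR EVs + HDL NPs against EnzR EVs it was 1 with 6 libraries and in both of these reduced sets, and 0 to 1 with 1 library left out. For any difference it was 8 and 2 in these sets, and 0 to 1 with 1 library left out. The cause was not tested.

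The replicate block gave 1 called gene in EnzR EVs against PBS and 0 in the other comparisons, and 0 members. The members' median under this pairing was 0.034, -0.095 and -0.11 in the 3 comparisons. It changed no other call.

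Scaling by library size only moved the median of all tested genes to -0.18 in EnzR EVs against PBS and 0.24 in EnzR EVs + HDL NPs against EnzR EVs. The members' medians were then -0.093 and 0.068, with 28 and 42 of 74 above 0. Relative to all tested genes the differences were 0.09 and -0.17, against 0.08 and -0.15 with TMM. Without the 3 libraries with the highest Rn45s share the median of EnzR EVs against PBS was 0.20, with 67 of 74 above 0, and the single EnzR EV library left was assumed to vary like the other groups. With 1 library left out the medians ranged from -0.04 to 0.09, from -0.17 to 0.01 and from -0.24 to -0.05.

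Some log2 fold changes turned sign, none of them called. Without the 3 libraries with the highest Rn45s share, EnzR EVs against PBS gave 0.060 for Mrpl32, 0.086 for Mrpl35 and 0.13 for Mrps12. EnzR EVs + HDL NPs against EnzR EVs gave -0.053 for Mrpl1, -0.29 for Mrpl30, -0.12 for Mrpl32 and -0.17 for Mrpl35. Mrpl32 in EnzR EVs + HDL NPs against PBS was -0.056 in that set and -0.057 without PBS 1 and EnzR EVs 1, and its lowest and highest values with 1 library left out were -0.061 and 0.59. For Mrps24 in EnzR EVs against PBS these were -0.051 and 1.01. The cause was not tested. Median member counts of 19 to 246 reads per library limit the precision for single members.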
